A study of Mus musculus with 4 samples.

Results

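Kruppel-like factors (KLFs) are transcription factors with 3 zinc fingers at the carboxyl end that bind GC-rich and CACCC sites in DNA. Here 10 of their genes were followed across 4 arrays of mouse cells labelled as group 3 innate lymphoid cells (ILC3s). The 10 genes were Klf2, Klf3, Klf4, Klf5, Klf6, Klf7, Klf9, Klf10, Klf12 and Klf13. They were chosen by gene symbol, and each had 1 row in a table of 19504 named genes. Cells labelled as ILC3s came from circZbtb20-/- mice, which lack a circular RNA made from exons of Zbtb20. Their wild type was circZbtb20+/+ mice. Cells with the same label came from Nr4a1-/- mice, which lack an orphan nuclear receptor, with Nr4a1+/+ mice as their wild type. ILC3s are barrier lymphocytes known for making IL-22 and lack the antigen receptors of T and B cells. The cells were sorted by flow cytometry as lineage-negative, CD90-high and CD45-low. T cell and ILC3 marker levels on the Nr4a1-/- array, given below, go against the ILC3 label. No treatment is named. No source used here gives the tissue, the strain, the age of the mice, the part of each gene deleted or the number of mice behind a sample. Each genotype has 1 array, so there is no replicate error, the number of arrays limits the precision, and differences below are described without a test unless a fit is named.

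KLF proteins fall into 3 groups by the partners they recruit. Klf2, Klf4, Klf5, Klf6 and Klf7 belong to the group that works mainly through acetyltransferases, Klf9, Klf10 and Klf13 to the group that recruits the SIN3A corepressor, and Klf3 and Klf12 to the group that recruits CtBP corepressors. In lymphocytes the family is best known for KLF2, which keeps T cells quiescent and drives genes for exit from tissues, among them S1pr1. Several members, Klf2, Klf4, Klf6 and Klf10 among them, are induced quickly by growth factors or stress in many cell types.

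Values are deposited log2 levels. A gene is counted as higher or lower when 2 arrays differ by at least 1 on this scale, called 2-fold below, and the higher value reaches the median over all rows of its array. Those medians were 4.38 in the circZbtb20 knockout, 4.48 in its wild type, 4.34 in the Nr4a1 knockout and 4.51 in its wild type. Levels near the median depend on background, so small levels are poorly measured. The top value of the table, 19.93, is shared by several rows and acts as a ceiling, and 0 of the KLF values were at it. The ceiling lies far above values usual for such arrays, and the 4 arrays do not share their 95th percentile, which ran from 11.38 to 11.89. The scale is therefore not fully settled, and a difference of deposited values need not be a fold of RNA. A level of 1 gene is not set against that of another, since different probes measure them.

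The promoters of Klf4, Klf6 and Klf9 are shown because these genes stood low together on the Nr4a1-/- array, and that of Klf13 because it stood high there. Each sequence is the 250 bases before the annotated start in RefSeq, build GRCm38.p6, read along the gene. Klf4 is taken from chr4:55532476-55532725 on the minus strand, and Klf6 from chr13:5861239-5861488 on the plus strand. Klf9 comes from chr19:23140976-23141225 on the plus strand, and Klf13 from chr7:63938916-63939165 on the minus strand. Capitals mark matches to any of the motifs searched.
Klf4: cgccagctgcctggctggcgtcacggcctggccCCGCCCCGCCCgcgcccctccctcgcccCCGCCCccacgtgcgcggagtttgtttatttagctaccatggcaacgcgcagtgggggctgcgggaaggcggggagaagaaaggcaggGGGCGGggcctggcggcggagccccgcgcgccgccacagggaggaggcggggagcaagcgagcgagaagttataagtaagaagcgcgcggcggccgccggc
Klf6: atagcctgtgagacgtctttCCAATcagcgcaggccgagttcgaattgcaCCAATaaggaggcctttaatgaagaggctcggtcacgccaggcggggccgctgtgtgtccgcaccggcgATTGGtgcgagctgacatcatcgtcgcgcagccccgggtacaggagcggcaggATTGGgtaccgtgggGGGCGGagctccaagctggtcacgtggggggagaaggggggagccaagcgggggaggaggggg
Klf9: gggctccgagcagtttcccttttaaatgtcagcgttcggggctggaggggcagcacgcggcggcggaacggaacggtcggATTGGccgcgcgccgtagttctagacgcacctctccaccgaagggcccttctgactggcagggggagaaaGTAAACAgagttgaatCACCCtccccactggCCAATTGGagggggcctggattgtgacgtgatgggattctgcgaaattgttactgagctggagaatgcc
Klf13: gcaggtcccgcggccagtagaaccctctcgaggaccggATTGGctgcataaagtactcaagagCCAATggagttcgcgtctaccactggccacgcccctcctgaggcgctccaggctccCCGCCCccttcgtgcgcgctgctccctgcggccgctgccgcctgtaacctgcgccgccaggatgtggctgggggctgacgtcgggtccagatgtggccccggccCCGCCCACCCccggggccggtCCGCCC
The motifs were searched on both strands. The set was the NR4A monomer site NBRE (AAAGGTCA), the cAMP response element CRE (TGACGTCA), a MEF2 site (CTATTTATA), a FOXO site (GTAAACA), the GC box (GGGCGG), the CACCC box (CACCC), the CCAAT box (CCAAT) and the TATA box (TATAAA). Matches share a base where a GC box meets another in Klf4 and a CACCC box in Klf13, and CCAAT matches of opposite strands overlap in Klf9.

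Of the 10 genes, 8 had a promoter in the RefSeq table, all but Klf5 and Klf10. None of these 8 windows held the NBRE, the CRE or the MEF2 site, which occur in 1.34%, 1.55% and 0.387% of all 32851 promoter windows of the same length. The FOXO site was found in 1, Klf9, at 100 bases before the start, against 3.17% of all windows. GC boxes were in 6 of the 8, with 6 matches in Klf3 and 4 in Klf4, against 32.7% of all windows. CACCC boxes, letters that KLF proteins themselves bind, were also in 6 of the 8, against 52% of all windows. CCAAT boxes were in Klf6, with 4 matches, Klf9, with 3, and Klf13, with 2, against 33.8% of all windows. The share of G and C ran from 48% in Klf12, the 1 member under the median of all windows, 52.4%, to 78.4% in Klf3. A match is a description of letters and does not show binding.

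The sample content of the arrays is given before the KLF results, since it touches all of them. Nr4a1, the targeted gene, stood at 11.63 in Nr4a1-/- cells and at 18.11 in Nr4a1+/+ cells, and at 15.98 in circZbtb20-/- cells and at the ceiling in circZbtb20+/+ cells. Whether its probes lie in the deleted part is not known here, so this row is a limited check of the genotype. No row was matched to the circular RNA itself, so its loss was not checked here. Thy1, the gene of CD90, was at 16.00 in Nr4a1-/- cells and at 12.36 in Nr4a1+/+ cells. Ptprc, the gene of CD45, was at 15.93 against 12.54. In circZbtb20-/- cells Thy1 was at 10.41 against 12.36 in circZbtb20+/+ cells, and Ptprc at 12.66 against 11.89. These are RNA levels, and the sort used surface protein. Among all genes that reached the array median, 31.9% were higher and 20.8% lower in Nr4a1-/- cells than in Nr4a1+/+ cells. Of 16 measured markers of T cells and thymocytes, all 16 were higher in Nr4a1-/- cells, where 0 lay under the array median. Their median log2 difference from Nr4a1+/+ cells was 9.38. Their summed log2 level was 244.2 in Nr4a1-/- cells and 96.9 in Nr4a1+/+ cells, and 91.1 in circZbtb20-/- cells and 84.7 in circZbtb20+/+ cells. A ratio of summed log2 levels is not a ratio of RNA. Of 14 measured ILC3 markers 13 were lower in Nr4a1-/- cells, with a summed level of 103.9 against 197.2 in Nr4a1+/+ cells. Their median difference there was -6.91, leaving out Il22. The summed level was 203.9 in circZbtb20-/- cells and 192.7 in circZbtb20+/+ cells. The receptor gene Kit stood at 5.48 in Nr4a1-/- cells and at 18.36 in Nr4a1+/+ cells. Not all ILC3 markers were low on the Nr4a1-/- array. There 11 of the 14 reached the array median of 4.34, but several stood only just above it. Among these were Ahr at 4.54, Il23r at 4.73 and Kit itself, and the median level of the 14 was 5.49. Il22 was at the ceiling in Nr4a1-/- cells and in both wild types, so it gives no difference there, and Id2 and Il7r were still at 15.48 and 13.40 in Nr4a1-/- cells. Il22 and Id2 are named after their values were seen. Markers of pancreatic acinar cells also differed. Their summed level over 13 genes was 64.0 in circZbtb20-/- cells and 143.3 in circZbtb20+/+ cells, and 51.5 in Nr4a1-/- cells and 110.1 in Nr4a1+/+ cells. The median differences from the own wild type were -6.70 in circZbtb20-/- cells and -4.10 in Nr4a1-/- cells. In such bulk samples fewer cells of a type and less RNA per cell cannot be told apart, and the part that sample content plays in any KLF difference was not tested.

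**Figure D1:**
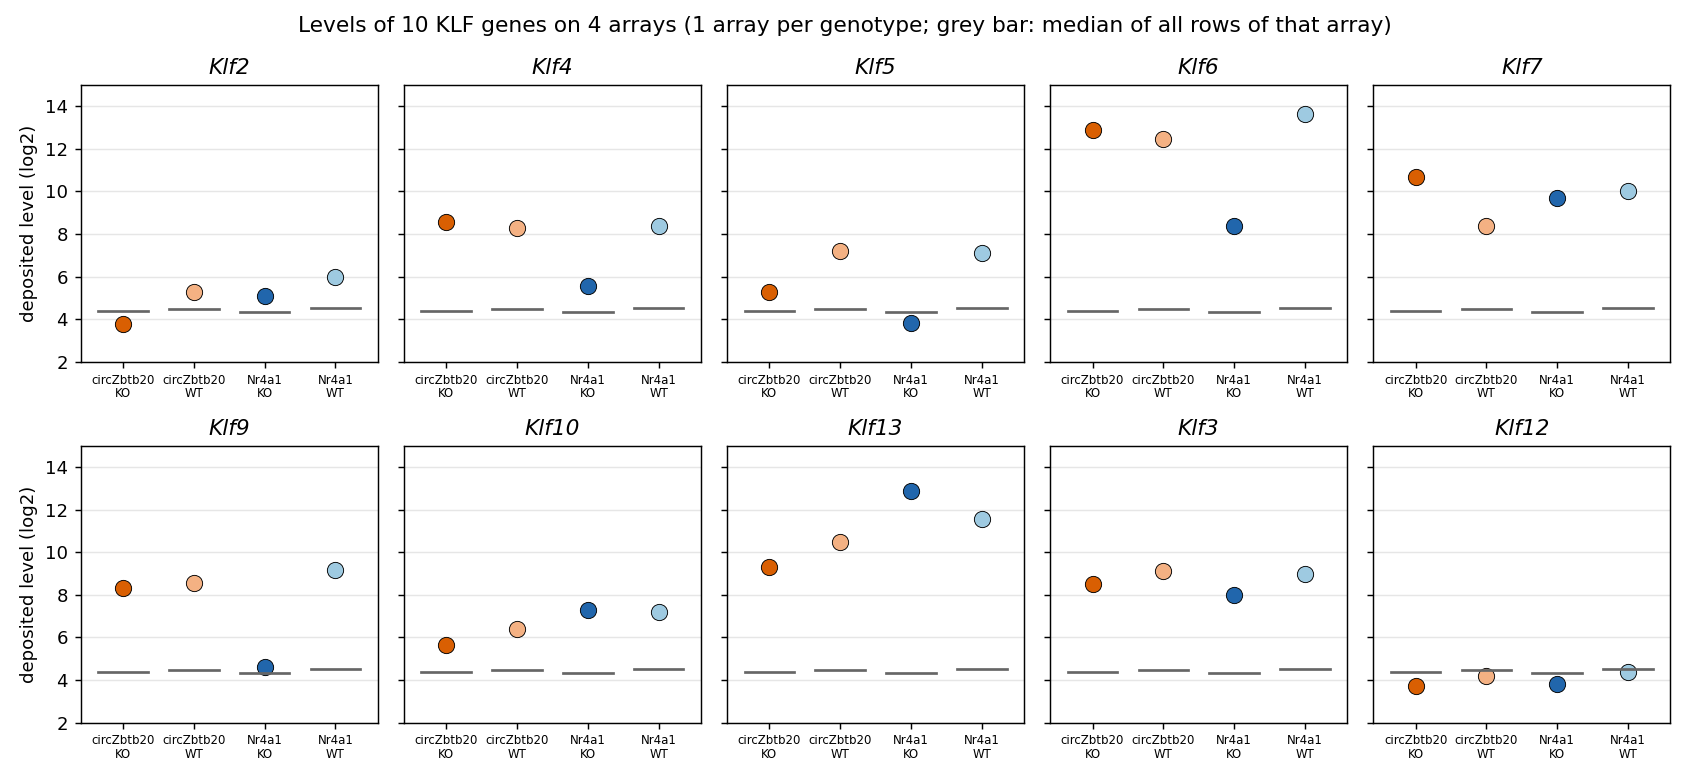
Deposited log2 level of each of the 10 KLF genes (vertical axis) on the 4 arrays (horizontal axis), 1 point per array, with the median of all rows of each array as a grey bar. Klf4, Klf5, Klf6 and Klf9 are lowest on the Nr4a1-/- array, at 5.54, 3.82, 8.37 and 4.61, and Klf13 is highest there, at 12.85.

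On the array of Nr4a1-/- cells, Klf4, Klf5, Klf6 and Klf9 stood below both wild types by at least 2-fold and Klf13 stood above both, while Klf2, Klf10 and Klf12 did not reach 2-fold against either wild type. Against Nr4a1+/+ cells 4 members were lower and 1 was higher. Among genes that reached the array median 52.7% were called in this comparison, 20.8% as lower and 31.9% as higher, and of all 19504 genes 30.3% were called, 11.9% as lower and 18.3% as higher. Of the 10 members 9 reached it, which is called the filter below, and 5 of these 9 were called, a share near the 52.7%. The median difference of the members was -0.92, against 0.00 over all genes. Against circZbtb20+/+ cells 5 members were lower and 2 higher, where 30.5% of all genes were called, 11.7% as lower and 18.8% as higher. There too 9 members were past the filter, and 53.2% of all genes past it were called. Against both wild types at once 24.2% of all genes were called, 8.63% as lower and 15.6% as higher.

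Klf6, a tumour suppressor and early response gene that is abundant in many tissues, had the largest difference of the 10 in size. It stood at 8.37 in Nr4a1-/- cells, against 13.62 in Nr4a1+/+ cells, with 12.89 in circZbtb20-/- cells and 12.47 in circZbtb20+/+ cells. The Nr4a1-/- array was the low one, and circZbtb20+/+ cells were next lowest. Nr4a1-/- cells differed by -5.25 from Nr4a1+/+ cells and by -4.10 from circZbtb20+/+ cells. In the first of these 1.34% of all genes were as low or lower.

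Klf9, which glucocorticoid and thyroid hormone induce, was at 4.61 in Nr4a1-/- cells, close to the array median, and at 9.18 in Nr4a1+/+ cells. It was at 8.30 in circZbtb20-/- cells and 8.55 in circZbtb20+/+ cells. Again the Nr4a1-/- array stood apart, by -4.57 from Nr4a1+/+ cells and -3.94 from circZbtb20+/+ cells.

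Klf5, which promotes proliferation of crypt epithelium, was at 3.82 in Nr4a1-/- cells, under the array median, and at 7.11 in Nr4a1+/+ cells. It passed the filter only through the wild type. Its difference was -3.29, and -3.40 against circZbtb20+/+ cells. Klf4, which restrains division and is needed for goblet cells, was at 5.54 in Nr4a1-/- cells and at 8.40 in Nr4a1+/+ cells. That is a difference of -2.86, and of -2.76 against circZbtb20+/+ cells. For Klf4 and Klf5 the wild types lay within 0.10 and 0.11 of each other, so the choice of wild type hardly mattered.

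Klf13, which activates Ccl5 in human T cells, ran the other way. It was at 12.85 in Nr4a1-/- cells and at 11.57 in Nr4a1+/+ cells, a difference of 1.28, and of 2.38 against circZbtb20+/+ cells. The wild types themselves differed by -1.10 for this gene, circZbtb20 minus Nr4a1.

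The other 5 members were closer to the wild types. Klf2 was at 5.08 in Nr4a1-/- cells and at 5.97 in Nr4a1+/+ cells, a difference of -0.89, and of -0.22 against circZbtb20+/+ cells. Klf3, a CtBP-dependent repressor, was at 8.01 in Nr4a1-/- cells against 8.96 in Nr4a1+/+ cells. It differed by -0.95 there and by -1.10 from circZbtb20+/+ cells, which is past 2-fold for only the second. Klf7, known for its role in axon growth, stood between the wild types, at 9.70 in Nr4a1-/- cells against 10.04 in Nr4a1+/+ cells and 8.40 in the other, from which it differed by 1.30. Klf10, a gene induced early by TGF-beta, was at 7.31 in Nr4a1-/- cells and at 7.21 in Nr4a1+/+ cells, a difference of 0.10. Klf12, a repressor of the AP-2 alpha gene, lay under the median on all 4 arrays, at 3.80 in Nr4a1-/- cells and 4.40 in Nr4a1+/+ cells, and at 3.70 in circZbtb20-/- cells and 4.19 in circZbtb20+/+ cells. Klf12 was the member that failed the filter in every comparison, and no difference can be read for it at such levels.

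A limma fit with both wild types as 1 group gave p-values whose error rests on the difference between those 2 arrays, moderated across genes. In this fit the Benjamini-Hochberg adjusted p over all genes was 0.0235 for Klf5, 0.0257 for Klf9, 0.0282 for Klf4 and 0.0355 for Klf6 in Nr4a1-/- cells, all lower. The limma estimates against the mean of both wild types were -3.35 with a standard error of 0.295 for Klf5, -4.26 with 0.411 for Klf9, -2.81 with 0.295 for Klf4 and -4.68 with 0.604 for Klf6. Klf13, at 1.83 with a standard error of 0.584, had a limma adjusted p of 0.163. Of all genes 11.2% passed an adjusted p of 0.05 in this limma fit, and the knockout is a single array whose own spread is assumed to equal that of the wild types.

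On the circZbtb20-/- array Klf2, Klf5 and Klf13 stood below both wild types by at least 2-fold, and 0 members stood above both by that size. Against circZbtb20+/+ cells 3 members were lower and 1, Klf7, was higher. In this comparison 46.7% of the genes past the filter were called, 19.4% as lower and 27.3% as higher, and of all genes 26.6%, 11.1% as lower and 15.6% as higher. Of the 9 members past the filter 4 were called, a share near the 46.7% of genes past it. Their median difference was -0.54, against 0.04 over all genes. Against Nr4a1+/+ cells 4 were lower and 0 higher, where 27.1% of all genes were called, 12% as lower and 15.1% as higher. There too 9 members were past the filter, and 47.4% of all genes past it were called. Against both wild types at once 20.1% of all genes were called, 7.91% as lower and 12.2% as higher.

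Klf2 was at 3.79 in circZbtb20-/- cells, under the array median, and at 5.30 in circZbtb20+/+ cells, with 5.08 in Nr4a1-/- cells and 5.97 in Nr4a1+/+ cells. It was lowest in circZbtb20-/- cells, by -1.51 from circZbtb20+/+ cells and -2.18 from Nr4a1+/+ cells. It passed the filter only through the wild types, whose own levels were no more than 1.46 above their array medians. The level of Klf2 was thus low on all 4 arrays.

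Klf5 was at 5.27 in circZbtb20-/- cells and at 7.22 in circZbtb20+/+ cells. The difference was -1.95, and -1.84 against Nr4a1+/+ cells, so both knockouts stood below both wild types, which the 2 comparisons share. Klf13 was at 9.32 in circZbtb20-/- cells and at 10.47 in circZbtb20+/+ cells, a difference of -1.15, and of -2.25 against Nr4a1+/+ cells. Klf13 therefore had its lowest level on the circZbtb20-/- array and its highest on the Nr4a1-/- array, with the wild types between them.

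The call for Klf7 rested on 1 wild type. It was at 10.67 in circZbtb20-/- cells and at 8.40 in circZbtb20+/+ cells, a difference of 2.27, but against Nr4a1+/+ cells, at 10.04, the difference was 0.63. Between the wild types Klf7 differed by -1.64, and 1.24% of all genes had a difference as low or lower. Klf10 was at 5.64 in circZbtb20-/- cells, its lowest level, and at 6.38 in circZbtb20+/+ cells, and it passed 2-fold against Nr4a1+/+ cells only, at -1.57. Klf3, Klf4, Klf6 and Klf9 differed by -0.60, 0.25, 0.42 and -0.25 from circZbtb20+/+ cells and did not reach 2-fold against either.

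The limma fit passed 0 members and 0% of all genes for circZbtb20-/- cells at an adjusted p of 0.05, with 4681 genes and 2 members at an unadjusted p under 0.05. The lowest limma adjusted p among the members was 0.0694, for Klf5, and the next was 0.114, for Klf2. The wild types, set against each other as background, gave 3 members past 2-fold, Klf6, Klf7 and Klf13, all lower in circZbtb20+/+ cells, where 8.36% of all genes were called, 4.65% as lower and 3.71% as higher. These calls were 1631 of the 10700 genes past the filter in that comparison, and 9 members were past it. For these 3 members the choice of wild type moves a difference by more than 2-fold.

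**Figure D2:**
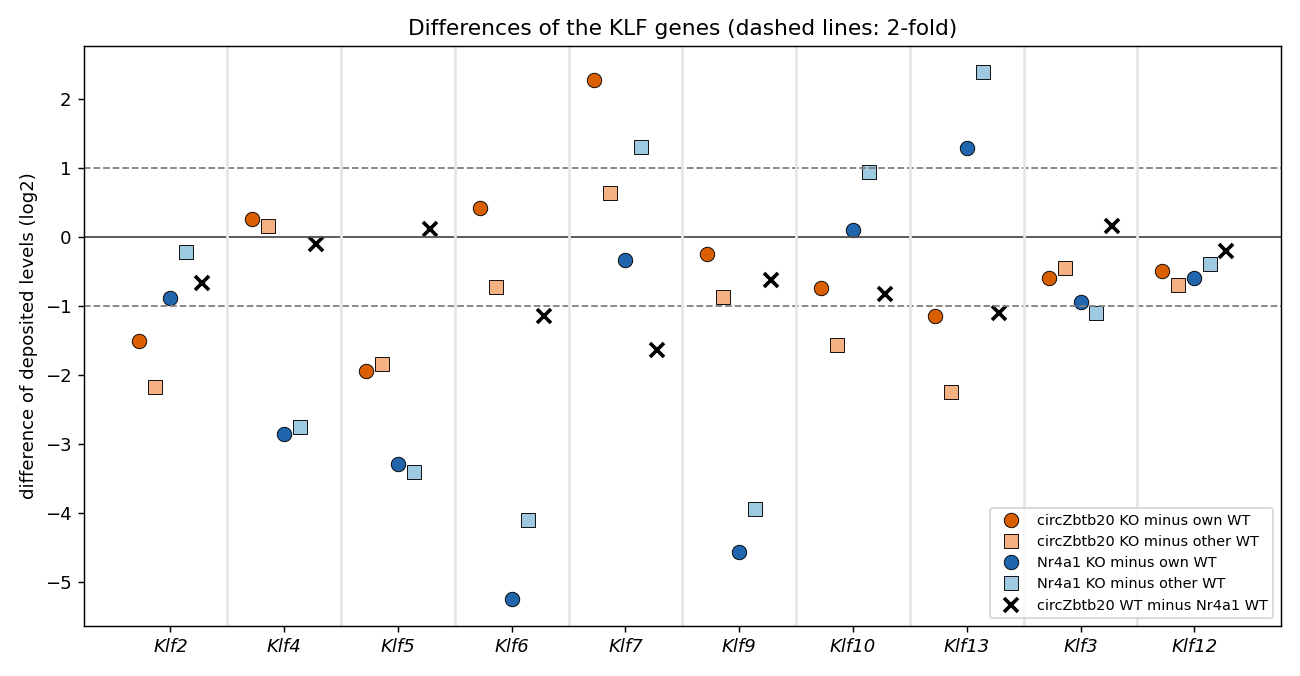
Log2 difference (vertical axis) of each KLF gene (horizontal axis), for each knockout minus its own wild type (circles) and minus the other wild type (squares), and between the wild types (crosses), with dashed lines at 2-fold. For Klf4, Klf5, Klf6 and Klf9 both points of Nr4a1-/- cells lie at -2.76 or lower, and the crosses of Klf6, Klf7 and Klf13 lie past -1.

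**Figure D3:**
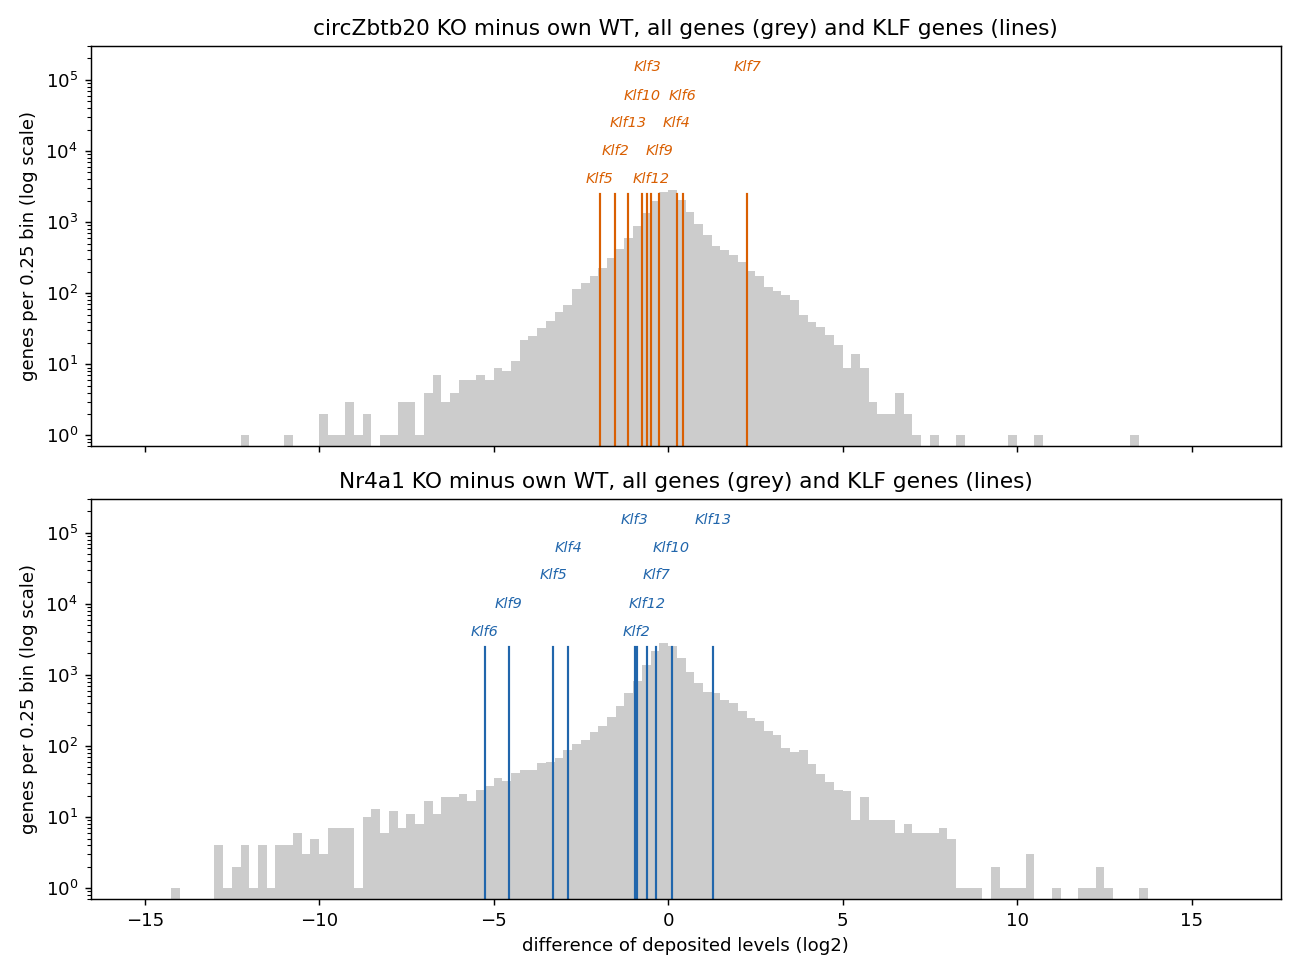
Number of genes per bin of log2 difference (vertical axis, log scale) for each knockout minus its own wild type (horizontal axis), all 19504 genes in grey, with a line at each KLF gene. In the circZbtb20 comparison the KLF lines run from -1.95 for Klf5 to 2.27 for Klf7, and in the Nr4a1 comparison from -5.25 for Klf6 to 1.28 for Klf13.

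Among the members themselves, Klf6 and Klf9 had nearly the same course over the 4 arrays. With each gene set to its own mean, the root mean square difference between them was 0.35, against 3.10 between Klf6 and Klf13, the widest of the 45 pairs. Klf3 and Klf12 were the closest pair, at 0.27, but both varied little, with ranges of 1.10 and 0.70. Klf2 and Klf10 came next after Klf6 and Klf9, at 0.46. With 4 arrays such likeness is a description only.

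For the 4 members with the widest range, the named genes of most similar course among 11616 compared were listed. Nearest to Klf6 were Hspb1, a small heat shock protein, at a root mean square difference of 0.08, Arhgap26, a GTPase-activating protein, at 0.16, and Efemp1, an extracellular matrix protein, at 0.21. Nearest to Klf9 were Acvr2a, an activin receptor, at 0.03, Rnd1, a small GTPase, at 0.07, and Dstn, the actin-severing protein destrin, at 0.12. Nearest to Klf5 were Srgap3 at 0.05, the Notch ligand Dll1 at 0.14 and Pik3r1, a regulatory subunit of PI3 kinase, at 0.16. Nearest to Klf13 were Tex10 at 0.09, Rdx, the membrane-cytoskeleton linker radixin, at 0.10 and Tmem165 at 0.11. Dll1, for example, was at 5.61 in circZbtb20-/- cells and 7.63 in circZbtb20+/+ cells, and at 3.94 in Nr4a1-/- cells and 7.61 in Nr4a1+/+ cells. Dll1 and also Hspb1, Efemp1, Rnd1 and Srgap3, at 3.91, 3.39, 3.40 and 3.42, lay under the median of the Nr4a1-/- array, 4.34. Background limits what their course there can show.

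The rest of the KLF family stood at 6.09 or lower on every array. Of the 7 other KLF genes, Klf1, Klf8, Klf11, Klf14, Klf15, Klf16 and Klf17, between 4 and 5 lay under the median on each array. A median by definition has as many rows under it as over it, so this count alone does not show low levels. Klf11 and Klf16 lay over it on all 4 arrays, Klf16 at 5.08 to 5.91. Klf11, a SIN3A-recruiting relative of Klf10, was at 4.76 in circZbtb20-/- cells and at 5.77 in circZbtb20+/+ cells, a difference of -1.01, and of -1.33 against Nr4a1+/+ cells. In Nr4a1-/- cells Klf11 was at 4.83, against 6.09 in Nr4a1+/+ cells, and at -0.94 from circZbtb20+/+ cells. Of 8 measured SP genes, the nearest relatives of the KLFs, Sp4 was at 12.65 in circZbtb20-/- cells and at 10.08 in circZbtb20+/+ cells. The difference was 2.57, and 1.42 against Nr4a1+/+ cells. In Nr4a1-/- cells Sp4 was at 8.83 against 11.23 in Nr4a1+/+ cells, a difference of -2.40, and of -1.25 against circZbtb20+/+ cells. Sp1 was at 14.02 in Nr4a1-/- cells and at 12.85 in Nr4a1+/+ cells, a difference of 1.17, and of 2.18 against circZbtb20+/+ cells. The wild types differed by -1.15 for Sp4 and by -1.01 for Sp1, circZbtb20 minus Nr4a1. The median differences of the SP genes were 0.00 for circZbtb20-/- cells and -0.06 for Nr4a1-/- cells.

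Trafficking targets of KLF2 are described next. The list mixes genes for exit from tissues with Cd69, which opposes it, and Il7r is also among the ILC3 markers. Its counts and median therefore cannot check whether a KLF2 programme changed. S1pr1, the sphingosine phosphate receptor that KLF2 drives in T cells, named here after its values were seen, hardly differed between arrays. It was at 5.78 in circZbtb20-/- cells and 5.81 in circZbtb20+/+ cells, and at 5.65 in Nr4a1-/- cells and 5.90 in Nr4a1+/+ cells. Of 11 measured trafficking targets 4 were higher and 2 lower in circZbtb20-/- cells, with a median of 0.37. Of the 10 targets past the filter 6 were thus called, beside 46.7% of all genes past it. That median was -0.12 against Nr4a1+/+ cells and -0.10 after quantile normalization, so it has no settled direction. Cd69, which opposes exit from tissues, was at 17.27 in circZbtb20-/- cells and at 14.96 in circZbtb20+/+ cells, and Cxcr4 was at 15.11 against 12.93. The integrin genes Itgb7 and Itgal were at 5.92 and 9.77 in circZbtb20-/- cells, against 8.53 and 11.97 in circZbtb20+/+ cells.

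In Nr4a1-/- cells 3 trafficking targets were higher and 3 lower, and the median difference was -0.25. Of the 10 past the filter 6 were called, near the 52.7% of all genes past it. Ccr9, a gut-homing receptor that thymocytes also carry, was at 18.84 against 11.16 in Nr4a1+/+ cells, a difference of 7.68, on the array with the T cell markers. Itgal was higher by 3.31, Itga4 was at 10.35 against 13.42, and Il7r was at 13.40 against 16.38. The targets were called in both directions on each knockout array.

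Quiescence genes other than the KLFs also split. Of 14 measured, 2 were higher and 6 lower in circZbtb20-/- cells, with a median of -0.47, and of -0.60 against Nr4a1+/+ cells. Among all genes past the filter 27.3% were higher and 19.4% lower in that comparison, and 13 of the quiescence genes were past it. Foxp1, a forkhead factor needed for quiescence of naive T cells, was at 11.35 in circZbtb20-/- cells and at 14.97 in circZbtb20+/+ cells. The antiproliferative genes Tob2 and Btg1 were at 6.13 and 9.82, against 9.68 and 12.93 in the wild type. Tsc1, which restrains mTOR, was higher by 2.12. In Nr4a1-/- cells 5 of the 14 were higher and 3 lower, near the 52.7% of genes past the filter that were called. Their median was 0.07 there and -0.14 after cyclic loess, so it took both signs. Cdkn1a, the p21 inhibitor of division and a KLF4 and KLF6 target, was at 4.19 in Nr4a1-/- cells, under the array median, and at 15.93 in Nr4a1+/+ cells. Slfn2 was higher by 4.03, Cdkn2c by 2.54, and Tob2 differed by -3.68.

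Genes that act upstream of Klf2 were called in both directions in Nr4a1-/- cells and only as lower in circZbtb20-/- cells. In the pathway from ERK5 through MEF2 and FOXO that induces Klf2, 0 of 10 genes were higher and 3 lower in circZbtb20-/- cells, with a median of -0.29, which was 0.08 against Nr4a1+/+ cells. The 3 called were among 8 past the filter, beside 46.7% of all genes past it, 19.4% as lower and 27.3% as higher. Mef2d was at 9.02 in circZbtb20-/- cells and at 11.36 in circZbtb20+/+ cells, and Map2k5, the kinase of ERK5, at 7.48 against 9.24. In Nr4a1-/- cells 5 were higher and 3 lower, which is all 8 past the filter, beside 52.7% of all genes past it. After cyclic loess 3 were higher and 3 lower. Mapk7, which encodes ERK5, was at 8.63 against 6.15 in Nr4a1+/+ cells and Mef2a at 13.98 against 11.90. Mef2c was at 4.74 against 8.61, and Foxo1, which drives Klf2 in T cells, at 6.75 against 9.24.

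The TGF-beta pathway, which induces Klf10, had 3 of 10 genes higher and 4 lower in circZbtb20-/- cells and 1 higher and 5 lower in Nr4a1-/- cells. All 10 were past the filter, where 46.7% and 52.7% of all genes were called, so 6 of 10 in Nr4a1-/- cells is near that share. By direction, 19.4% of all genes past it were lower and 27.3% higher in circZbtb20-/- cells. In Nr4a1-/- cells 20.8% were lower and 31.9% higher, beside the 5 of 10 lower and 1 higher here. The median difference in circZbtb20-/- cells was -0.46, or -0.99 against Nr4a1+/+ cells. Tgfb1 was at 12.64 in circZbtb20-/- cells and at 15.95 in circZbtb20+/+ cells. Smad3 was lower in both knockouts, at -1.65 from circZbtb20+/+ cells in circZbtb20-/- cells and at -3.29 from Nr4a1+/+ cells in Nr4a1-/- cells. Skil, a feedback inhibitor of SMADs, was at 10.46 in Nr4a1-/- cells and at 16.39 in Nr4a1+/+ cells, and Tgif1, a corepressor, at 6.38 against 11.77. Tgif1 was higher by 2.48 in circZbtb20-/- cells. Klf10 itself differed by -0.74 between circZbtb20-/- and circZbtb20+/+ cells and by 0.10 between Nr4a1-/- and Nr4a1+/+ cells.

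Immediate-early genes, a class induced quickly like Klf2, Klf4, Klf6 and Klf10, were mostly lower in Nr4a1-/- cells. Of 23 measured 18 were lower and 4 higher, all of them past the filter, beside 20.8% lower and 31.9% higher among all genes past it. The median difference was -4.15, or -3.19 against circZbtb20+/+ cells. The list holds Nr4a1 itself. Fosb was at 4.63 in Nr4a1-/- cells and at 15.81 in Nr4a1+/+ cells, Fosl2 at 5.44 against 14.24, Jun at 6.97 against 15.69 and Junb at 7.02 against 15.23. Egr2 was higher by 5.19 and is named after its value was seen. Of the quickly induced KLF genes, Klf4 and Klf6 were past 2-fold lower on the same array as these genes, and Klf2 and Klf10 were not. In circZbtb20-/- cells 11 were lower and 5 higher, beside 19.4% lower and 27.3% higher among all genes past the filter, and the median difference was -0.86. Against Nr4a1+/+ cells 14 were lower and 1 higher and the median difference was -1.54, and after quantile normalization the median was -1.37. Egr1 was at 9.07 in circZbtb20-/- cells against 14.93 in circZbtb20+/+ cells.

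The cofactors and ubiquitin ligases of the KLFs were mostly higher in Nr4a1-/- cells, with 12 of 16 higher and 0 lower, beside the 31.9% of genes called higher past the filter. The number higher was 9 against circZbtb20+/+ cells and also 9 after quantile or cyclic loess normalization, with 1 lower under cyclic loess. Their median of 1.42 was between 1.29 and 1.59 under quantile, cyclic loess or median scaling. Ctbp1, the corepressor that Klf3 and Klf12 bind, was at 12.67 in Nr4a1-/- cells and at 9.91 in Nr4a1+/+ cells, and Hdac1 was at 14.44 against 9.98. Hdac2 was at 11.97 against 8.03 and Hdac3 at 11.96 against 8.90. In circZbtb20-/- cells 6 were higher and 2 lower, with 15 past the filter. Among all genes past it 46.7% were called in that comparison, 27.3% as higher and 19.4% as lower. The median difference was 0.01, and -0.20 after quantile normalization. Sin3b, of the corepressor complex that Klf9, Klf10 and Klf13 use, was at 10.24 in circZbtb20-/- cells and at 6.96 in circZbtb20+/+ cells, and the ligase gene Wwp2 was at 11.30 against 7.20.

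**Figure D4:**
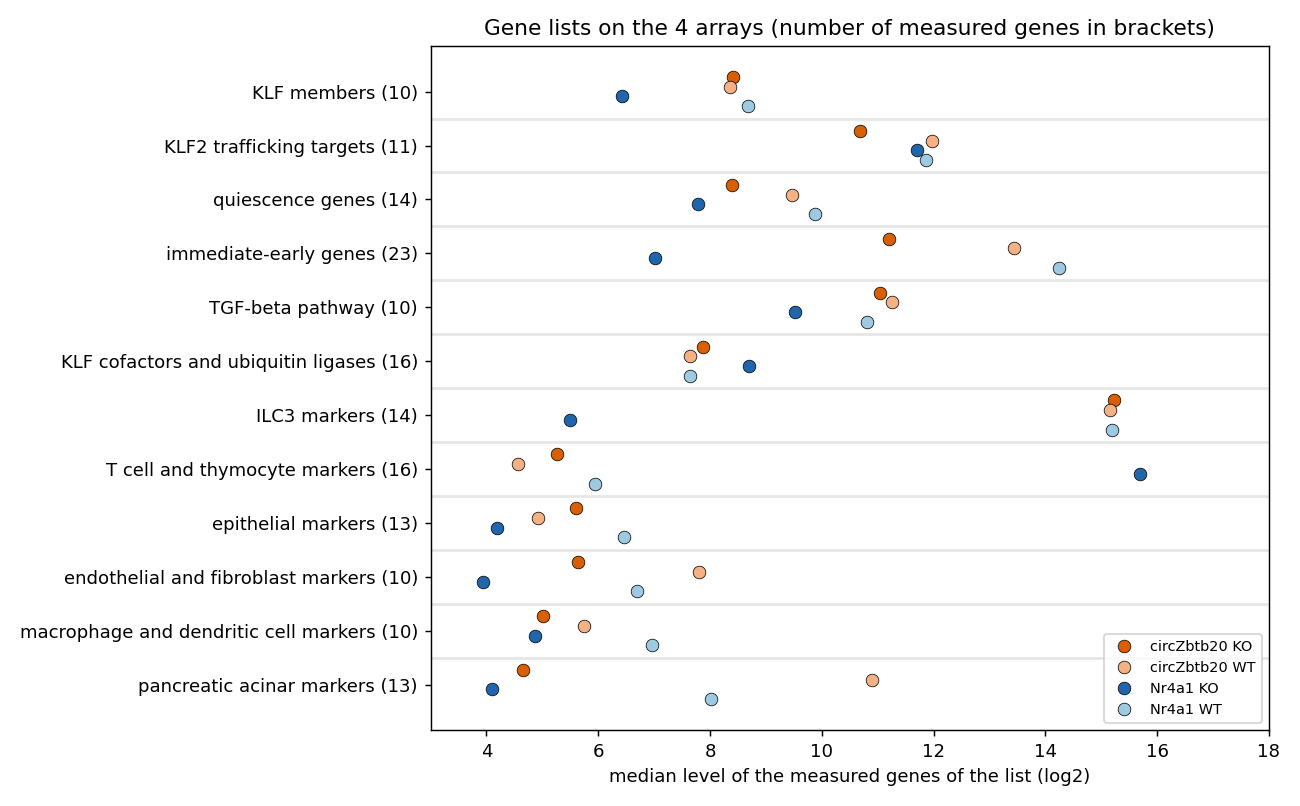
Median log2 level (horizontal axis) of the measured genes of each list (vertical axis, number of genes in brackets) on the 4 arrays, 1 point per array. The T cell and thymocyte markers stand at 15.70 in Nr4a1-/- cells and at 5.95 in Nr4a1+/+ cells, the ILC3 markers at 5.49 and 15.20, and the KLF genes at 6.42 and 8.68.

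Markers of other cells that express KLF genes differed on some of the same arrays. Beside the counts against the own wild type, 20.8% of all genes past the filter were lower and 31.9% higher in Nr4a1-/- cells. In circZbtb20-/- cells 19.4% were lower and 27.3% higher. Klf4 and Klf5 are known epithelial factors, and of 13 measured epithelial markers 12 were lower in Nr4a1-/- cells and 0 higher, with a median difference of -2.56 and a summed level of 53.6 against 90.3 in Nr4a1+/+ cells. Against circZbtb20+/+ cells, with a summed level of 63.9, 5 were lower and the median difference was -0.84. Krt8, a keratin of simple epithelia, was at 4.39 in Nr4a1-/- cells and at 9.15 in Nr4a1+/+ cells. Between the wild types the median difference of these markers was -2.05, circZbtb20 minus Nr4a1. Klf4 and Klf5 differed between the wild types by -0.10 and 0.11. In circZbtb20-/- cells, where Klf5 was lower, 5 epithelial markers were higher and 1 lower, with a median difference of 0.62 and a summed level of 75.5 against 63.9 in circZbtb20+/+ cells. Against Nr4a1+/+ cells, with a summed level of 90.3, 1 marker was higher and 9 were lower. The median difference was -1.45, so the direction of the markers turns with the wild type. Klf5 was lower against both wild types. The part of epithelial content in the Klf4 and Klf5 differences was not tested.

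Klf2, Klf4 and Klf6 are also expressed in vessels. The counts below stand beside 52.7% of all genes past the filter called in Nr4a1-/- cells, 20.8% as lower and 31.9% as higher. For circZbtb20-/- cells the share was 46.7%, 19.4% as lower and 27.3% as higher, each against its own wild type. Against the other wild type 53.2% and 47.4% were called. Of 10 endothelial and fibroblast markers 8 were lower and 0 higher in Nr4a1-/- cells, with a summed level of 43.2 against 70.3 in Nr4a1+/+ cells. The median difference was -2.25. Dcn, the fibroblast proteoglycan decorin, had the largest, at 3.06 in Nr4a1-/- cells, a difference of -9.94 from Nr4a1+/+ cells. In circZbtb20-/- cells 4 were lower, with a summed level of 66.6 against 77.2. Against the other wild type 8 of these markers were lower and 0 higher in Nr4a1-/- cells, and 3 were lower and 1 higher in circZbtb20-/- cells. Between the wild types 4 of them were higher in circZbtb20+/+ cells and 0 were lower. Of 10 macrophage and dendritic cell markers 7 were lower in Nr4a1-/- cells and 3 in circZbtb20-/- cells, each against its own wild type, with 0 higher in either. Against the wild type of the other pair 4 were lower in Nr4a1-/- cells and 8 in circZbtb20-/- cells, so the order of the knockouts turns with the wild type. Their summed levels were 51.4 in Nr4a1-/- cells and 71.3 in Nr4a1+/+ cells, and 51.8 in circZbtb20-/- cells and 59.5 in circZbtb20+/+ cells. Of 7 B cell markers 3 were lower in Nr4a1-/- cells and 1 was higher in circZbtb20-/- cells, and of 3 measured erythroid markers 1 was lower in Nr4a1-/- cells. Against the other wild type 1 B cell marker and 0 erythroid markers were lower in Nr4a1-/- cells, and 2 B cell markers were lower and 1 higher in circZbtb20-/- cells. The part of these markers in the KLF differences was not tested.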

How the data were processed

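The deposited table holds log2 expression values of 22205 rows on 4 arrays, which the authors made with Affymetrix Power Tools and RMA, per the submitters' processing notes. No source used here gives their version or settings. RMA usually corrects background, normalizes by quantiles and summarises probes, but the 4 arrays do not share their quantiles (75th percentile 6.58 to 6.94) and have 3 to 25 rows at the top value, so later steps are not known and differences of the deposited values need not equal ratios of RNA. The build used for the rows is likewise unnamed. Rows were named through GEO's platform annotation, with 19571 rows of 1 symbol and 2634 of none, and of several rows of a gene the one with the highest mean was kept. Listed genes without a named row were not analysed here.

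Samples were grouped by title. Each knockout was set against its own and the other wild type. With 1 array per genotype no test was the main result. A limma fit (3.58.1 in R 4.3.3) with both wild types as 1 group was an alternative and was tested on simulated data. Other alternatives were the reference, normalization, size rule, filter and row choice. The KLF genes and the lists were chosen with earlier results of these data known. Named were all 10 members, up to 4 genes of each list past 2-fold against both wild types in the same direction, with the greatest differences from the own wild type, and the 3 genes of nearest course for the 4 widest members. Promoter sequences are from RefSeq (GRCm38.p6).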

Additional observations from a re-analysis of the deposited data

Results flagged for a closer look

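Klf13 stood out because the knockouts lay on opposite sides of both wild types. It differed by -1.15 from its own wild type in the circZbtb20 knockout and by 1.28 in the Nr4a1 knockout. The difference between these effects was not tested, since each rests on 1 array. The wild types themselves differed by nearly as much for Klf13, by -1.10, circZbtb20 minus Nr4a1.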

How the results depend on the processing

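With 1 array per genotype no replicate could be left out. No paired analysis was possible because every genotype has a single array. Against the other wild type the number of members counted as higher was 0 for the circZbtb20 knockout and 2 for the Nr4a1 knockout, against 1 each with the own wild type. For the circZbtb20 knockout the number lower was 3 in the main setting, 5 with a 1.5-fold rule and 0 with a 4-fold rule, and limma passed 0 members as higher and 0 as lower. For the Nr4a1 knockout the number higher was 0 after cyclic loess, 0 with a 4-fold rule and 0 by limma, with Klf13 at 0.93 under cyclic loess. Its number lower was 4 or 5 in every setting run, limma included, except the 1.5-fold rule, which gave 6. The members' median difference ran from -0.82 to -0.44 over the scalings and choices of wild type for the circZbtb20 knockout and from -1.21 to -0.75 for the Nr4a1 knockout. No member called against its own wild type changed sign in any setting run. Median centring moved the median of all genes to 0.14 for the circZbtb20 knockout and 0.17 for the Nr4a1 knockout. The next brightest row could not be used, since each member has 1 row. Klf2, Klf12 and, in the Nr4a1 knockout, Klf5 and Klf9 lay near or under the array median, where signal over background limits what can be read.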
